A study of Homo sapiens with 5 samples.

Results

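The genes described here are those whose transcripts ended more often at the upstream of their 2 main poly(A) sites in both HEK293T lines that lack CFIm59. For each gene, the 2 sites with most reads over the 5 libraries were taken, and the proximal share is the percentage of their reads at the upstream (proximal) site. A gene was kept when this share was 12 or more percentage points above the control in each CFIm59 knockout line and the control held 30 or more reads at both sites together. This gave 150 genes of 5869 with a pair of sites, or 2.85% of the 5271 pairs that met the control minimum. In the opposite direction, 652 pairs moved by 12 or more points to the distal site in both lines. The members were chosen on the difference between the CFIm59 knockout lines and the control, so all values of that comparison are given below as a description and without a test.

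The cells were HEK293T, a transformed human embryonic kidney line, and all 5 libraries came from it, with no drug or other treatment labelled. The control was wild type and gave 1 library. CFIm59, the product of CPSF7, was knocked out with CRISPR/Cas9 in 2 cell lines, and CFIm68, the product of CPSF6, in another 2, each sequenced once. The control had no replicate, and the spread within a genotype is that between its 2 lines.

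Cleavage factor Im (CFIm) binds UGUA motifs in a nascent transcript through its small subunit CFIm25 (NUDT21) and carries CFIm59 or CFIm68 as its large subunit. The large subunits hold arginine- and serine-rich domains that contact the cleavage and polyadenylation machinery at the AAUAAA signal. Loss of CFIm25 or CFIm68 is known for a shift of many transcripts to proximal sites, which shortens their 3′ untranslated regions. A proximal site in an intron instead gives a transcript that lacks the downstream exons.

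The ends of the paired transcripts are shown for 6 genes, to show what separates a proximal from a distal end in the gene with the largest rise (SGSM3), in 3 genes read deeply or nearly complete at the proximal site without CFIm59 (CSNK1E, PRPF4B, LRRFIP1), in a gene with an intronic proximal site (DMC1) and in a gene that moved the other way without CFIm68 (PHC3). The deposited positions are on hg19, for which no sequence was used here, so each end is the last 30 bases of a GENCODE release 29 transcript (GRCh38) of the same gene. The 2 transcripts of a gene were taken where their ends lay as far apart as the deposited sites, within 3 nt. One such pair of ends existed for SGSM3, LRRFIP1, DMC1 and PHC3, while PRPF4B had 2 and CSNK1E had 4, of which the closest in spacing is shown. Sequences run 5′ to 3′ on the gene's strand, and capitals mark the poly(A) signal AATAAA or, where that is absent, ATTAAA.
SGSM3 proximal (chr22:40410079-40410108, plus strand): tataAATAAActgtgtctgtctttgagaaa
SGSM3 distal (chr22:40410260-40410289, plus strand): catggactgaataagatggactaacaggcc
CSNK1E proximal (chr22:38296206-38296235, minus strand): ttctatgggcAATAAAggccaagagagctc
CSNK1E distal (chr22:38290692-38290721, minus strand): ttgaagtAATAAAgtagaaaagataaagtg
PRPF4B proximal (chr6:4061878-4061907, plus strand): tagatAATAAAgtcttttgtgaacaaggca
PRPF4B distal (chr6:4064954-4064983, plus strand): aaactgAATAAAatatgcctcttattatca
LRRFIP1 proximal (chr2:237765886-237765915, plus strand): ttgaAATAAAaacattttataattgtgcaa
LRRFIP1 distal (chr2:237780286-237780315, plus strand): aaATTAAAaatgaaatgttgagagacttca
DMC1 proximal (chr22:38569284-38569313, minus strand): tgtaataAATAAAcacaatcacgccttgtg
DMC1 distal (chr22:38518949-38518978, minus strand): taaacaAATAAAatcctgttttcaaaatgc
PHC3 proximal (chr3:170095221-170095250, minus strand): atcattggATTAAAgtatcaaggaaagcta
PHC3 distal (chr3:170087584-170087613, minus strand): tctttacaAATAAAagcctcttccatttga
Neither signal stands in the printed distal end of SGSM3, while its proximal end holds AATAAA. In CSNK1E, PRPF4B and DMC1 both ends hold AATAAA, and in PHC3 the proximal end holds ATTAAA and the distal end AATAAA.

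Ends could be matched in this way for 25 of the 150 genes and for 935 of the 5271 pairs. On the transcript strand, AATAAA stood in the last 40 bases of 18 of the 25 proximal ends (72.0%) and of 15 distal ends (60.0%). Over all 935 matched pairs it stood in 53.2% of proximal and 64.0% of distal ends. TGTA, the DNA form of the CFIm25 motif, stood at least once in the last 100 bases of 14 proximal ends (56.0%) and 16 distal ends (64.0%), against 49.9% and 58.0% over all matched pairs. A match says only that these letters stand in the window, and the 25 genes are those whose 2 ends are both annotated.

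SGSM3, a protein with a TBC domain of the kind that acts on Rab GTPases in vesicle traffic, had the largest rise. Its sites lie 181 nt apart in the last exon on chromosome 22, plus strand, at hg19 positions 40806107 (proximal) and 40806288 (distal). The proximal site held 2 of 40 reads in the control, a share of 5.0% with a Wilson 95% interval of 1.38 to 16.5%. It held 46 of 54 reads (85.2%) in CFIm59 knockout line 1 and 99 of 122 (81.1%) in line 2. Both lines lay above the control, and the mean share was 83.2% ± 2.86 (SD, n = 2). The proximal site met the read minimum, and so entered the pair, only through these lines, so the pattern is only described. In the CFIm68 knockout lines the site held 4 of 42 reads (9.52%) and 0 of 37, a count that allows a share of up to 8.11%. These lines lay on either side of the control, and the edgeR quasi-likelihood test gave a log2 change of the proximal to distal ratio of -0.01 ± 0.86 (SE), adjusted p = 0.998.

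Reads at both SGSM3 sites differed in number without CFIm59. The proximal site went from 0.752 CPM (reads scaled to the effective library size, so that libraries of unequal depth can be compared) in the control to 27.6 and 41.0 CPM, and the distal site went from 14.3 to 4.80 and 9.53 CPM. The gene as a whole gave 15.04 CPM in the control, 33.0 and 50.5 CPM without CFIm59, and 14.6 and 16.9 CPM without CFIm68. The CFIm59 knockout lines were thus above all 3 other libraries at the proximal site and in the gene total.

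Over the 150 genes the mean rise of the 2 CFIm59 knockout lines had a median of 19.8 points and ran from 12.8 to 78.2. The median proximal share was 36.6% in the control, 62.1% and 59.6% without CFIm59, and 44.9% and 44.5% without CFIm68. For all 5271 pairs the medians were 33.3% in the control, 27.5% and 27.8% without CFIm59, and 48.2% and 46.2% without CFIm68. The 2 lines differed from each other by over 12 points in 28 genes (18.7%), which was not counted over all pairs. The edgeR test across all pairs called 33 of the 150 to proximal in the CFIm59 knockout at adjusted p under 0.05, beside 0.988% of all pairs, and 0 to distal; since the same contrast chose the genes, this count is only a description of their read depth and spread.

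Depth was low for many of these genes. The control held a median of 63.5 reads at both sites, against 105 over the 5271 pairs, and 68 of the 150 genes (45.3%) had under 60 control reads, against 25.5% of all pairs. With 100 or more control reads, 34 of the 150 remained. A rise in a gene with few reads is easier to reach by counting error, so the deeper members are described apart below.

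**Figure D1:**
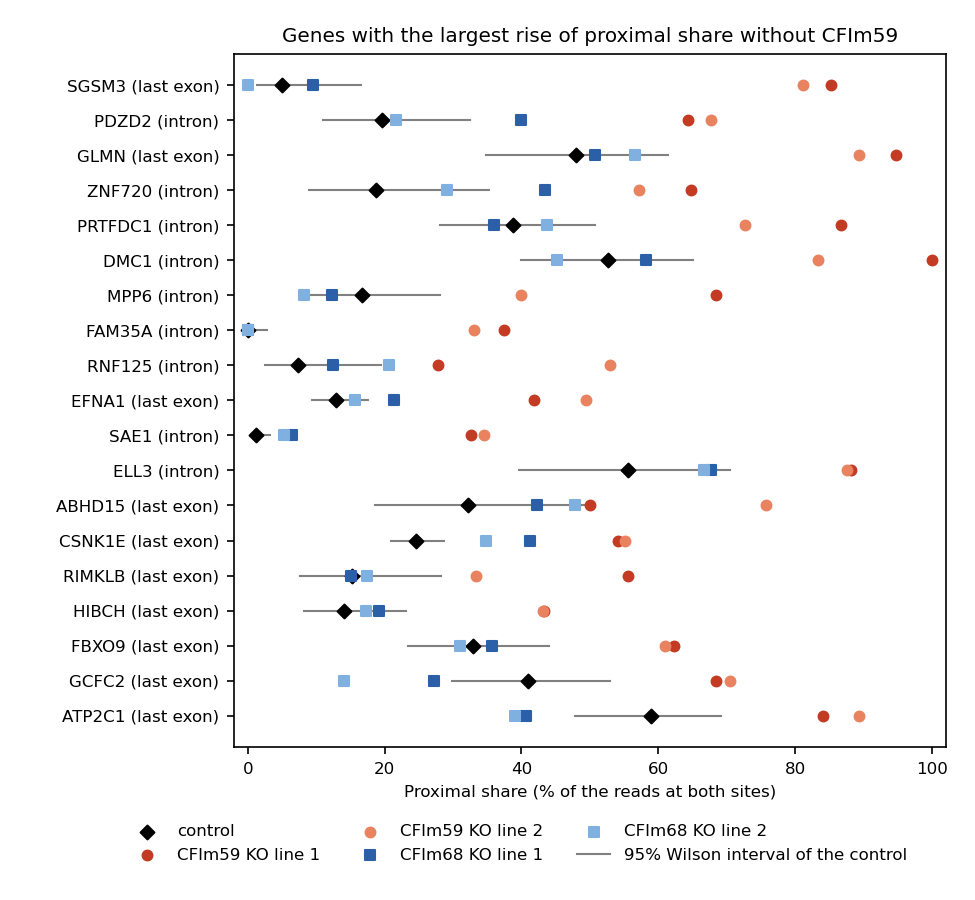
Proximal share (x axis, percent of the reads at both sites) in each of the 5 libraries for genes with the largest mean rise without CFIm59, clone names and a gene not reported here left out; grey lines are the control's Wilson 95% intervals and the class of the proximal site is in brackets. In SGSM3 the CFIm59 knockout lines stand at 85.2% and 81.1%, against 5.0% in the control, while the CFIm68 knockout lines lie on both sides of the control in several genes.

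Of the 20 genes of largest mean rise, clone names counted, 11 had an intronic proximal site (55.0%, beside 26.7% of the 150 genes and 11.7% of all pairs). Where genes are called part of the 20 below, clone and antisense names are left out of the ranking. SAE1 encodes a subunit of the enzyme that activates SUMO, and its proximal site lies in an intron 33699 nt upstream of the distal site. This site held 4 of 318 reads (1.26%) in the control, 121 of 370 (32.7%) and 167 of 484 (34.5%) without CFIm59, and 20 of 310 (6.45%) and 12 of 229 (5.24%) without CFIm68. The CFIm59 knockout lines were far above the rest, and the CFIm68 knockout lines lay above the control's interval of 0.490 to 3.19%. Distal SAE1 reads were not lower without CFIm59, at 149 and 131 CPM against 118 CPM in the control. The higher share came with reads added at the intronic site, which went from 1.504 to 72.6 and 69.2 CPM.

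FAM35A, now SHLD2, encodes a subunit of the shieldin complex of DNA repair. Its intronic proximal site held 0 of 130 reads in the control, which allows a share of up to 2.31%, and 43 of 115 (37.4%) and 42 of 127 (33.1%) in the CFIm59 knockout lines. In the CFIm68 knockout lines it held 0 of 73 and 0 of 67 reads, which allows up to 4.11% and 4.48%. Reads at this site were thus seen only in the CFIm59 knockout lines among the 5 libraries. The site met the read minimum, and so entered the pair, only through those lines. The pattern is therefore only described. FAM35A has near-identical copies in the genome, and no source used here says how reads were divided between copies.

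Other intronic cases rested on fewer reads. PDZD2, a protein with PDZ domains, went from 10 of 51 reads (19.6%) to 18 of 28 (64.3%) and 21 of 31 (67.7%) without CFIm59, with 18 of 45 (40%) and 5 of 23 (21.7%) without CFIm68. MPP6, a scaffold protein of the MAGUK family, had 10 of 60 control reads at the proximal site, and 13 of 19 and 10 of 25 in the CFIm59 knockout lines. In both genes the CFIm59 knockout lines lay above the other 3 libraries.

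For DMC1, the meiotic recombinase, and PRTFDC1, a relative of the purine salvage enzyme HPRT, the share was higher in libraries with few reads of the gene. DMC1 had 30 proximal of 57 reads in the control (52.6%) but only 2 of 2 and 5 of 6 without CFIm59, and its total went from 24.1 CPM to 1.80 and 5.39 CPM. PRTFDC1 had 26 of 67 (38.8%) in the control and 13 of 15 and 8 of 11 without CFIm59, with a total of 33.1 CPM against 10.2 and 4.97 CPM. The shares of the CFIm59 knockout lines in these 2 genes therefore rest on 2 to 15 reads. ZNF720 (a zinc finger gene), RNF125 (a ubiquitin ligase) and ELL3 (an elongation factor of the ELL family) were further intronic cases of the 20, with mean rises of 42.2, 33.0 and 32.2 points. In the CFIm59 knockout lines, ZNF720 held 17 and 21 reads at both sites together and RNF125 18 and 17. The rise of RNF125 was 20.5 points in line 1 and 45.6 in line 2. RNF125 and ELL3 each have a site that is also listed under another gene.

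Among last exon pairs, GLMN, a regulator of cullin ubiquitin ligases, came after SGSM3 and 2 genes with clone or antisense symbols, with sites 83 nt apart. It went from 24 of 50 reads (48.0%) in the control to 18 of 19 (94.7%) and 25 of 28 (89.3%) without CFIm59, and stood at 37 of 73 (50.7%) and 26 of 46 (56.5%) without CFIm68. EFNA1, a ligand of Eph receptors, went from 34 of 262 reads (13.0%) to 33 of 79 (41.8%) and 45 of 91 (49.5%) without CFIm59. In the CFIm68 knockout lines EFNA1 stood at 34 of 159 (21.4%) and 20 of 128 (15.6%). In both genes the CFIm59 knockout lines were above all other libraries, and a site of EFNA1 is also listed under another gene.

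The remaining last exon genes of the 20 were ABHD15, RIMKLB, CSNK1E, HIBCH, FBXO9, GCFC2 and ATP2C1, with mean rises of 27.8 to 30.6 points. HIBCH, an enzyme of valine breakdown, was even between lines, with 16 of 37 reads (43.2%) and 22 of 51 (43.1%) against 12 of 85 (14.1%) in the control. ATP2C1, a calcium pump of the Golgi, went from 46 of 78 (58.97%) to 58 of 69 (84.1%) and 59 of 66 (89.4%) without CFIm59, and stood at 54 of 133 (40.6%) and 36 of 92 (39.1%) without CFIm68. Its knockout libraries thus lay on opposite sides of the control.

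The members with most control reads had smaller counting error. SNHG5, a host gene of small nucleolar RNAs, had 1294 of 1578 control reads at the proximal of 2 last exon sites 75 nt apart (82.0%, interval 80.0 to 83.8%). Without CFIm59 it had 392 of 412 (95.1%) and 785 of 828 (94.8%), and without CFIm68 742 of 948 (78.3%) and 482 of 645 (74.7%). The CFIm59 knockout lines were above the control and the CFIm68 knockout lines below it. Without CFIm59 both sites held fewer SNHG5 reads, with the proximal site going from 487 to 235 and 325 CPM and the distal site from 107 to 12.01 and 17.8 CPM.

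MGEA5, now OGA, removes O-GlcNAc from proteins. Its proximal share was 27.1% (333 of 1231 reads) in the control, 47.9% (135 of 282) and 56.5% (296 of 524) without CFIm59, and 24.7% (169 of 683) and 22.7% (155 of 682) without CFIm68. Here the proximal site did not gain reads: it had 125 CPM in the control against 81.1 and 122.6 CPM without CFIm59, while the distal site went from 338 to 88.3 and 94.4 CPM. A site of MGEA5 is also listed under another gene.

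CSNK1E, casein kinase 1 epsilon, showed both movements. Its proximal share was 24.6% (114 of 463 reads) in the control, 54.0% (127 of 235) and 55.2% (182 of 330) without CFIm59, and 41.3% (251 of 608) and 34.9% (174 of 499) without CFIm68. The proximal site went from 42.9 to 76.2 and 75.4 CPM and the distal site from 131 to 64.8 and 61.3 CPM without CFIm59. All 4 knockout lines were above the control, the CFIm59 lines most, and the CFIm68 difference did not pass the edgeR test (log2 change 0.91 ± 0.37 SE, adjusted p = 0.062).

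PRPF4B, a kinase of the spliceosome, had shares on both sides of the control. It stood at 33.3% (114 of 342 reads) in the control, 54.2% (90 of 166) and 66.9% (190 of 284) without CFIm59, and 11.2% (28 of 251) and 28.0% (52 of 186) without CFIm68. LRRFIP1, a nucleic acid-binding partner of Flightless-1, reached 65 of 67 reads (97.0%) and 78 of 87 (89.7%) without CFIm59, from 102 of 154 (66.2%) in the control. Its distal site went from 19.6 CPM to 1.20 and 3.73 CPM in these lines, while the proximal site, at 39.0 and 32.3 CPM, stayed near the control's 38.4 CPM.

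**Figure D2:**
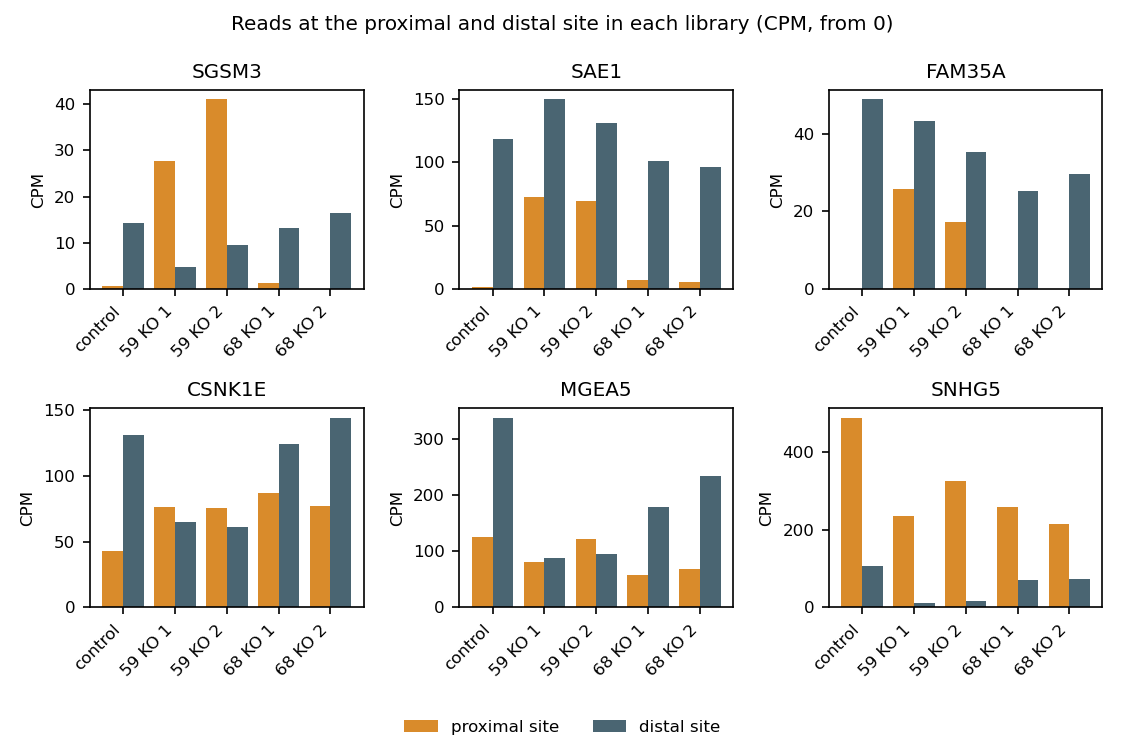
Reads at the proximal (orange) and distal (grey) site, in CPM on axes from 0, for 6 genes in the control, the 2 CFIm59 knockout lines (59 KO) and the 2 CFIm68 knockout lines (68 KO); each bar is 1 library. In the CFIm59 knockout lines the proximal bar is higher and the distal bar lower than in the control in SGSM3, FAM35A and CSNK1E, both bars are higher in SAE1, and both are lower in MGEA5 and SNHG5.

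Counted over the members, the proximal site was higher and the distal site lower in CPM in both CFIm59 knockout lines in 82 of 150 genes, beside 6.13% of all pairs. In 22 genes (14.7%, beside 17.1% of all pairs) the proximal site was higher in both lines but the distal site was not lower in both. In 46 (30.7%, beside 36.0%) the distal site was lower without a higher proximal site in both. The proximal site was lower in both lines in 21 of 150 genes, beside 57.2% of all pairs. In these 21 genes a higher share came with fewer proximal reads. Of the 40 genes with an intronic proximal site, 34 had more proximal reads and 30 had fewer distal reads in both lines. Of the 102 genes whose sites were both last exon sites, 65 had more proximal and 92 had fewer distal reads in both lines. For these classes no share over all pairs of the same class was counted. The rule fixes that one of the sites moves, so these counts describe which one did.

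Site class and the distance between sites were set beside those of all pairs, as a description. The threshold did not use them, but they are not independent of the selection. The sites of each pair were chosen by reads that included those of the CFIm59 knockout lines. A site read mainly in those lines, as in SGSM3 and FAM35A, could therefore enter a pair through them. The part of this choice in the differences from all pairs was not tested. The authors classed the proximal site as intronic in 40 genes (26.7%, against 11.7% of all 5271 pairs), as last exon in 106 (70.7% against 82.7%) and as upstream exon in 4 (2.67% against 5.58%). The sites were a median of 2470 nt apart, against 1310 nt. Pairs 4000 nt or more apart made up 40% of the members against 25.3% of all pairs, and pairs under 250 nt apart 24.7% against 20.2%, while the classes between were smaller than over all pairs. Pairs of last exon sites under 250 nt apart were 34 of the 150 members (22.7%), against 19.0% of all pairs. Pairs of last exon sites 4000 nt or more apart were 22 of the 150 (14.7%), against 11.7% of all pairs.

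**Figure D3:**
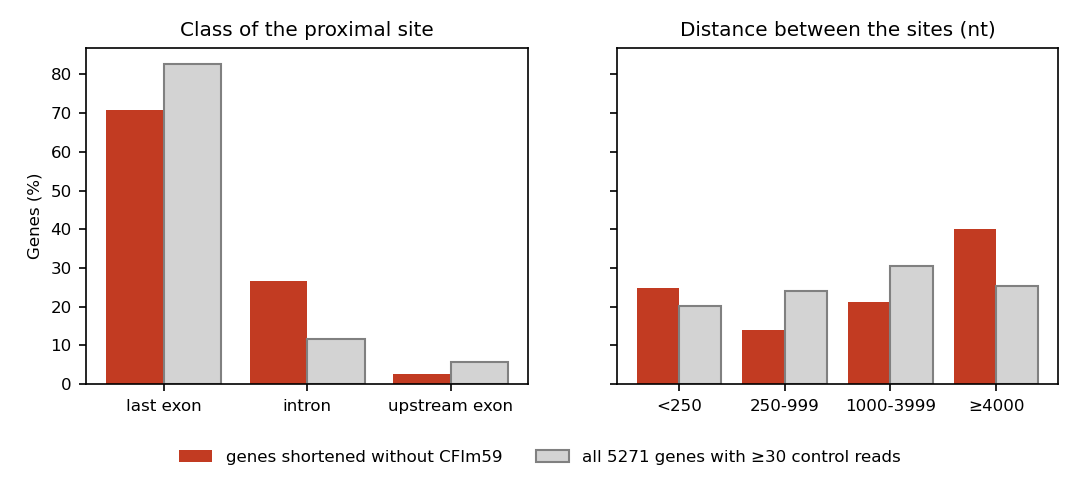
Percentage of genes (y axis, from 0) by the authors' class of the proximal site (left) and by the distance between the sites in nt (right), for the 150 genes (red) and for all 5271 pairs with 30 or more control reads (grey). Intronic proximal sites make up 26.7% of the 150 genes and 11.7% of all pairs, and distances of 4000 nt or more 40% and 25.3%.

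A site listed under a second gene occurred in 12 of the 150 genes (8.0%), against 3.21% of all pairs, and symbols of the clone or non-coding type in 17 (11.3% against 2.69%). In such overlaps, reads of a neighbouring transcript can stand under the gene named, and their part in the shares was not tested. MTRNR2L12, the intronic member with most reads, resembles mitochondrial ribosomal RNA, so reads may be divided between copies; it went from 270 of 539 (50.1%) to 204 of 328 (62.2%) and 378 of 573 (66.0%).

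The threshold of 12 points cuts through a continuous range. Just inside, by the smaller rise of the 2 lines, stood MTRNR2L12 and CYR61 with 12.10 points, USP14 with 12.13 and B9D1 with 12.16. Just outside stood WHSC1L1 with 11.93 points, ZFP1 with 11.90, PSMD11 with 11.85 and SSBP4 with 11.81.

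The same genes were next read in the CFIm68 knockout lines, to see what the loss of the other large subunit did to their site use. This comparison was not used by the rule but shares its control library, and a control share that was low by counting error raises the difference in every knockout line. Relative to the control, the proximal share was higher in both CFIm68 knockout lines in 83 of 150 genes (55.3%, beside 59.6% of all pairs) and lower in both in 30 (20%, beside 21.6%). The median difference of the 2-line mean was 6.40 points, against 4.92 over all pairs, and it ran from -49.97 to 46.7 points. The mean lay within 12 points of the control in 81 genes, 12 or more points above in 51 and 12 or more points below in 18. These limits were not counted over all pairs, so nothing is read from the split. The lower and upper quartiles of the mean difference were -1.37 and 16.1 points for the members, and -0.93 and 16.8 for all pairs.

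The edgeR quasi-likelihood test with Benjamini-Hochberg adjustment called 20 of the 150 genes to proximal in the CFIm68 knockout (13.3%, beside 25.0% of all 5869 pairs) and 4 to distal (2.67%, beside 3.10%). By class, calls to proximal were 12.5% of intronic members beside 11.5% of all such eligible pairs, and 11.8% beside 29.7% for last exon pairs. Members held fewer control reads (median 63.5, against 105 over the 5271 pairs), and the part of depth in these shares was not tested. With DESeq2 these counts were 4 and 1, and without CFIm68 knockout line 1 the edgeR count to proximal was 12. Genes with an intronic proximal site had a median difference of 9.17 points, against 1.97 over all such pairs, and genes with a last exon proximal site 5.52 against 6.26.

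TMEM9B, a lysosomal membrane protein, had the largest move to proximal. It held 4 of 36 proximal reads (11.1%) in the control, 5 of 12 (41.7%) and 8 of 26 (30.8%) without CFIm59, and 35 of 64 (54.7%) and 25 of 41 (61.0%) without CFIm68. All 4 knockout lines were above the control, and the CFIm68 lines above the CFIm59 lines, with a log2 change of 3.38 ± 0.78 (SE) in the CFIm68 knockout and edgeR adjusted p = 0.00063.

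MYO6 and MYO9A, unconventional myosins, and ZNF592, a zinc finger protein, moved the same way. MYO6 stood at 50% in the control (36 of 72 reads), 62.5% and 75.3% without CFIm59, and 79.4% and 94.9% without CFIm68 (log2 change 2.70 ± 0.61 SE, edgeR adjusted p = 0.000464). MYO9A stood at 6.67% (4 of 60), 19.4% and 20.4% without CFIm59, and 30.8% and 57.9% without CFIm68 (3.33 ± 0.86 SE, edgeR adjusted p = 0.00223). ZNF592 stood at 42.6% (20 of 47), 55.8% and 57.1% without CFIm59, and 74.5% and 89.6% without CFIm68 (2.61 ± 0.66 SE, edgeR adjusted p = 0.00157). In these 3 genes, no CFIm68 line overlapped the control or the CFIm59 lines.

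MID2, a ubiquitin ligase of the TRIM family, was called too (72.7% and 68.8% without CFIm68, 31.2% in the control, edgeR adjusted p = 0.0165), but its CFIm59 knockout lines held only 4 reads each. SAE1 passed with a small difference in points (log2 change 2.26 ± 0.72 SE, edgeR adjusted p = 0.013), and its call was lost with DESeq2, without a read minimum and without CFIm68 line 1 (edgeR adjusted p = 0.0646), as was that of MID2 with DESeq2 and without line 1 (edgeR adjusted p = 0.0746). AKAP13, an anchoring protein for protein kinase A with an upstream exon site, stood at 55.9% in the control, 71.9% and 70.4% without CFIm59, and 78.3% and 83.1% without CFIm68 (edgeR adjusted p = 0.017, and 0.0726 without CFIm68 line 2).

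**Figure D4:**
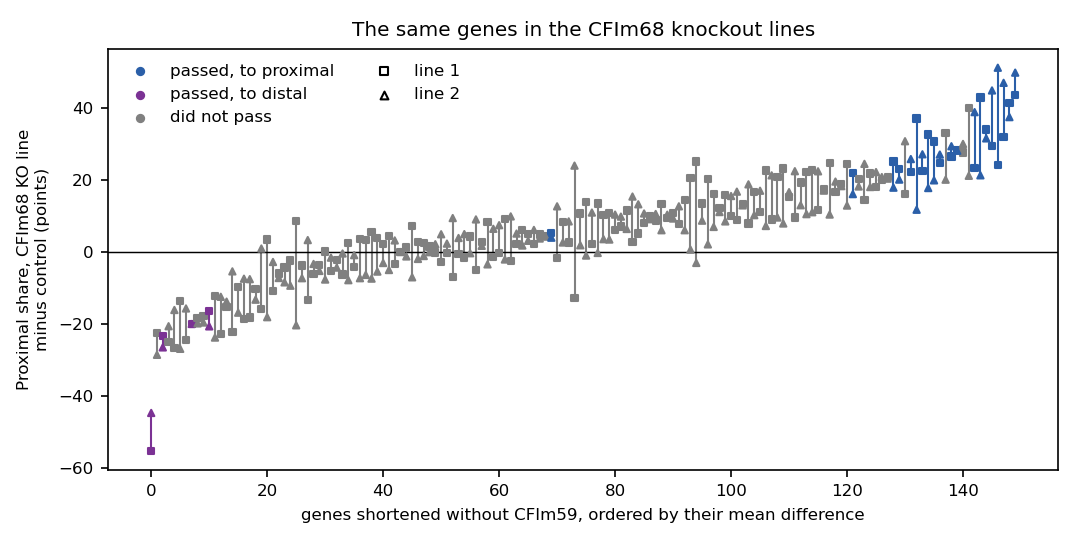
Difference of the proximal share from the control in CFIm68 knockout line 1 (squares) and line 2 (triangles), in percentage points, for the 150 genes in the order of their mean difference; blue and purple mark genes that passed the edgeR test to proximal (20) and to distal (4). The differences run through 0, with 83 genes above the control in both lines and 30 below it in both.

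The 4 genes that moved to distal without CFIm68 are named here after their values were seen where the rule for naming did not select them. KIAA1524, now CIP2A, an inhibitor of the phosphatase PP2A, stood at 50.8% (32 of 63 reads) in the control, 71.4% and 77.8% without CFIm59, and 27.4% (23 of 84) and 24.3% (17 of 70) without CFIm68, with a log2 change of -1.55 ± 0.55 (SE) and edgeR adjusted p = 0.0266. PHC3, a Polycomb protein, had 9 of 45 proximal reads in the control (20%), 8 of 23 and 21 of 48 without CFIm59, and 0 of 20 and 0 of 13 without CFIm68, which allows shares of up to 15% and 23.1% (edgeR adjusted p = 0.017). PCM1, a protein of centriolar satellites, stood at 74.6% in the control, 91.0% and 90.4% without CFIm59, and 58.2% and 53.9% without CFIm68 (edgeR adjusted p = 0.042). Without CFIm68 line 2 the edgeR adjusted p was 0.0527 for KIAA1524, 0.0543 for PHC3 and 0.109 for PCM1, and without line 1 it was 0.13 for PHC3.

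The fourth gene has the clone name CTD-3195I5.1, and one of its sites is also listed under another gene. It had 18 of 31 proximal reads in the control (58.1%) and 1 of 35 and 2 of 15 without CFIm68 (edgeR adjusted p = 0.00036). In all 4 genes the control lay between the knockouts, with every CFIm59 line above it and every CFIm68 line below it. The rule placed the CFIm59 lines above the control, and the 4 genes were picked for a call to distal without CFIm68. This order was therefore set by the choice of genes, and both differences share the control library. ZNF678, SUB1P3, KCTD7 and GCFC2 had similarly low CFIm68 means, 20.3 to 25.5 points under the control, and did not pass the test, with edgeR adjusted p from 0.0735 to 0.093.

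Gene totals were compared in the CFIm68 knockout, where 1 of the 150 genes was higher (0.667%, beside 1.59% of the 14636 genes tested) and 5 were lower (3.33%, beside 2.03%). At an unadjusted p under 0.05, 6 were higher and 15 lower. The share of all genes at that level was not counted, so nothing is read from this split. OSBP, an oxysterol-binding protein of lipid transport, went from 27.1 CPM to 56.3 and 77.7 CPM without CFIm68 (log2 change 1.30 ± 0.30 SE, edgeR adjusted p = 0.00713, and 0.052 without CFIm68 line 2). Its CFIm59 knockout lines, at 30.02 and 21.96 CPM, lay around the control.

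STK32C, a serine/threonine kinase, went from 97.4 CPM to 43.8 and 34.6 CPM without CFIm68 (log2 change -1.30 ± 0.26 SE, edgeR adjusted p = 0.00143). GNL3, nucleostemin, went from 71.1 CPM to 27.5 and 31.1 CPM (-1.28 ± 0.27 SE, edgeR adjusted p = 0.00265). BCCIP, a partner of BRCA2 and CDKN1A, fell from 142 to 70.5 and 72.8 CPM (edgeR adjusted p = 0.0248), and SNHG5 from 608 to 340 and 296 CPM (edgeR adjusted p = 0.0135). These 4 genes were also below the control in both CFIm59 knockout lines, and the fifth that fell was the antisense gene TMEM161B-AS1 (edgeR adjusted p = 0.048, and 0.174 without CFIm68 line 1).

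In the CFIm59 knockout, gene totals are a description. The median log2 difference of the 150 genes was -0.08, against -0.11 over all pairs, with 6 genes past the edgeR threshold upward (beside 6.98% of genes tested) and 12 downward (beside 6.87%). Among genes past the threshold, the largest differences upward were SGSM3 with a log2 difference of 1.49, UCK1, a uridine-cytidine kinase, with 1.26, NFIB, a transcription factor, with 1.20 and NIPA1, a magnesium transporter, with 0.95. The largest downward were DMC1 with -2.62, PRTFDC1 with -2.19, MID2 with -1.82 and P4HA1, a collagen prolyl hydroxylase subunit, with -1.81. Members with higher and with lower totals were thus both present. In reads of whole cultures, fewer cells that express a gene and less RNA per cell cannot be told apart.

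The members were read against lists of gene roles, and 28 of the 150 stood on one. Counts are given of the listed pairs that met the control minimum, to be read beside the 2.85% of all such pairs that were members. The ubiquitin and proteasome list gave 7 of 151 pairs, namely FBXL5, FBXO9 and FBXO44 (F-box proteins), RNF41 and RNF125 (ligases), UBE2D4 (a conjugating enzyme) and USP14 (a proteasome deubiquitinase). USP14 was the one of these 7 that passed in the CFIm68 knockout, from 22 of 74 reads (29.7%) to 54.9% and 47.6% (edgeR adjusted p = 0.043, and 0.144 without CFIm68 line 1). FBXO9 stood at 32.9% in the control, 62.4% and 61.0% without CFIm59, and 35.7% and 31.0% without CFIm68.

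Solute carriers gave 5 of 57 pairs, beside 2.85% of all pairs. SLC38A10, an amino acid transporter with an intronic proximal site, stood at 30.6% in the control, 50.8% and 44.2% without CFIm59, and 52.9% and 56.5% without CFIm68 (edgeR adjusted p = 0.0208). SLC25A12, SLC25A38 and SLC33A1 lay above the control without CFIm59 and did not pass without CFIm68. SLC20A2, a phosphate transporter, stood at 20.9% in the control and 5.56% and 7.14% without CFIm68, from 1 of 18 and 2 of 28 reads, and did not pass.

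Enzymes of mitochondrial metabolism gave 4 of 26 pairs, beside the same 2.85%. SUCLA2, a subunit of succinyl-CoA ligase with an intronic proximal site, stood at 9.20% in the control (16 of 174 reads), 38.2% and 21.4% without CFIm59, and 7.69% and 14.2% without CFIm68. HADH, of fatty acid oxidation, stood at 33.5%, then 49.0% and 46.5% without CFIm59, and 56.2% and 40.7% without CFIm68 (edgeR adjusted p = 0.097). FH, fumarase, had only 6 and 19 reads in the CFIm59 knockout lines, and HIBCH is given above.

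Zinc finger genes gave 4 of 89 pairs (ZNF592, ZNF678, ZNF720 and ZNF740), kinases and phosphatases 2 of 124 (CSNK1E and STK32C) and vesicle traffic 2 of 128 (SGSM3 and SNX2), beside 2.85% of all pairs. SNX2, a sorting nexin, stood at 25.9% in the control (73 of 282 reads), 44.0% and 49.8% without CFIm59, and 23.5% and 16.5% without CFIm68. The SUMO list gave SAE1, the cell cycle list CDC25C, the chromatin list KAT8 and the axon guidance list EFNA1. CDC25C, a phosphatase of mitotic entry, stood at 24.1% in the control, 43.3% and 41.5% without CFIm59, and 5.56% and 16.7% without CFIm68.

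Several lists held no member, to be read beside the 2.85% of all pairs. None of the 3 CFIm genes, 14 other cleavage and polyadenylation factors and 11 SR protein genes was among the 150, nor any of 55 cytosolic and 42 mitochondrial ribosomal proteins or 33 oxidative phosphorylation genes. Over the 14 cleavage and polyadenylation factors the edgeR calls without CFIm59 were 1 to proximal (beside 0.988% of all pairs) and 6 to distal (beside 4.99%), and those without CFIm68 were 5 (beside 25.0%) and 0 (beside 3.10%).

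Total reads per library ran from 1673687 to 2924266. CPSF6 fell from 120 CPM in the control to 48.0 and 45.7 CPM in the CFIm68 knockout lines (log2 change -1.35, edgeR adjusted p = 0.000512). CPSF7 had 59.8 CPM in the control and 68.4 and 55.5 CPM without CFIm59, where reads at 3′ ends do not check an edit elsewhere in the gene, and 128 and 204 CPM without CFIm68. NUDT21 had 81.7 and 67.9 CPM without CFIm59, against 120 CPM in the control. All 8 markers listed for HEK293T had reads, with a summed level of 179 to 238 CPM over the libraries, but single markers differed between libraries. IRS4 had 32 reads in the control, 0 in both lines without CFIm59, and 61 and 19 in those without CFIm68. EYA1 had 19.6 CPM in the control, 6.60 and 8.70 without CFIm59, and 9.04 and 5.77 without CFIm68. NEFM had 37.2 CPM in the control, 8.41 and 38.5 without CFIm59, and 65.3 and 95.0 without CFIm68. Hepatocyte markers summed to 26.7 CPM in the control and 0 to 4.14 in the other libraries, from 70 control reads of ALB with no TTR, and epithelial markers to 56.4 CPM in CFIm59 knockout line 1 and 9.77 to 16.7 CPM elsewhere. Blood markers stayed at 4.87 CPM or lower and fibroblast markers at 15.3 CPM or lower. The part of these differences between lines in the shares above was not tested.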

How the data were processed

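Poly(A) site libraries were made from fragmented total RNA by oligo(dT) priming and circularisation of cDNA, per the labels' protocols, which give 2 different read lengths. The authors deposited raw read counts per poly(A) site for 5 libraries, with hg19 positions and a class per site. The submitters' processing notes name TopHat2 2.1.0 and deepTools 2.4 with no role. Site calling, internal priming, the annotation and whether positions count from 0 or 1 are each not given in the sources used. Of 290072 entries, the 17824 repeated listings of a site held 0 reads and were left out.

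Pairs entered with a mean of 20 or more reads per library at both sites together and 5 or more at each. The counts of both sites entered a fit in edgeR 4.0.16 (R 4.3.3; quasi-likelihood, library terms and site-by-group terms), and gene totals with TMM and filterByExpr (14636 genes). All 5 libraries shared 1 spread, so the lone control was assumed to vary like the lines. Tests were 2-sided, Benjamini-Hochberg adjusted over all pairs or genes, at 0.05. Knockout values are means ± SD over 2 lines. Reads carried no molecular identifiers, so intervals and floors (3 reads) cover counting error only. On simulated data the pair fit recovered 45% of log2 changes of 2 and 87% of 4 over 5869 pairs in the CFIm68 contrast. The simulated spread was fixed and the depths were those of all pairs, so recovery among the shallower members was not measured. Alternatives were DESeq2 1.42.0, other minimums and thresholds, other scaling, each line left out and a replicate block.

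The members and gene lists were chosen with earlier results of these data known. Named were SGSM3, the 20 largest rises, the 4 members with most control reads per proximal class, 4 on each side of the threshold, the 5 largest and 5 smallest CFIm68 differences, up to 4 members per list, and up to 4 each way in expression. Clone, LOC, LINC, MIR, SNOR, RNU and antisense symbols were counted and not named, apart from those said to be chosen after seeing values. A gene that this rule selects is not reported here.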

Additional observations from a re-analysis of the deposited data

How the results depend on the processing

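Depth limited these results, since 68 of the 150 genes had under 60 control reads and the control was a single library. The number of genes that met the rule was 98 at 15 points, 44 at 20 points and 34 with 100 or more control reads, and 316 to 337 when 1 CFIm59 knockout line was left out. Calls to proximal in the CFIm59 knockout (33) became 4 with DESeq2, 20 with minimums of 100 and 20 reads (28 members in that fit), 18 with no minimum, and 17 to 48 with a line left out. Calls to proximal in the CFIm68 knockout (20) became 4, 5 and 8 under the same settings and 12 to 21 with a line left out, and those to distal (4) became 1, 2 and 2, and 4 to 5. DESeq2 gave an adjusted p to 66 of the 150 genes for site use in the CFIm59 knockout and to 10 for expression in the CFIm68 knockout, so it called 0 higher and 1 lower there. The gene higher in the CFIm68 knockout (1) was 0 to 1 with a line left out, and those lower (5) were 5 to 6. Of 24 site calls in the CFIm68 knockout, 5 (TMEM9B, MYO6, MYO9A, ZNF592 and CTD-3195I5.1) held under every setting that gave an adjusted p, and of 6 expression calls 2 (STK32C and GNL3); no call changed direction. OSBP lost its call without CFIm68 line 2, with adjusted p = 0.052.

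Line numbers did not pair the samples, with Pearson's r across genes of 0.033 for shares and -0.021 for expression. With a replicate block the counts were 44, 22, 5, 1 and 2 in the order above, the last being genes lower in the CFIm68 knockout. The median log2 difference of gene totals in the CFIm59 knockout, whose alternatives were chosen after seeing the data, was -0.15 with no filter on low genes, against -0.08.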
